A study of Mus musculus with 22 samples.

Results

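The histone genes that cells switch on to package newly made DNA were followed in lung RNA of 22 mice. They were taken by name from the gene table: every symbol that starts with Hist1h to Hist4h, or with H2ac, H2bc, H3c, H4c or H1f followed by a number, which gave 68 of 20938 genes. Of these, 64 belong to the replication-dependent families, with 6 H1, 17 H2A, 17 H2B, 12 H3 and 12 H4 genes. The other 4 (H1f0, H1f7, H1f8 and H1f10) are linker histones that are not tied to DNA replication and matched by name alone, so their values are given apart. On the genome build mm10 (GRCm38), 54 of the 68 lie on chromosome 13, where the major histone cluster of the mouse is, 10 on chromosome 3, and 2 each on chromosomes 15 and 6.

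All mice were of the BALB/c strain and, by the treatment labels, all had been sensitized by intraperitoneal injection at the age of 49 days, with a booster at 63 days; the labels do not name the sensitizing agent. Aerosols of phosphate-buffered saline (PBS, the control), methacholine (MCh, a muscarinic agonist that narrows the airways) or ovalbumin (OVA, the egg-white allergen) started at 70 days. In the short protocol they were given on 3 consecutive days, in the long protocol 3 times a week over 4 weeks, and each protocol had 3 PBS, 4 MCh and 4 OVA libraries. The titles disagree with the treatment labels in places: they give 4 days for short MCh and call PBS and MCh mice normal. The series' design text names trachea where the samples name lung.

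Replication-dependent histone mRNAs come from small intronless genes and, alone among animal mRNAs, usually end not in a poly(A) tail but in a short stem-loop, which the stem-loop binding protein Slbp holds and next to which the U7 small nuclear ribonucleoprotein directs the cut. Their levels rise as a cell enters S phase and drop when DNA synthesis ends, so that histones are made as DNA is. Copies in tandem clusters, many with almost the same sequence, supply H2A, H2B, H3, H4 and H1. The variants listed as replication-independent (H3f3a, H3f3b, H2az1, H1f0 and others) are single genes, most with polyadenylated mRNAs. The libraries were made with a total RNA kit, which does not select for poly(A).

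The stem-loop is shown first because it is the sequence that sets these genes apart. The letters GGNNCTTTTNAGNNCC, searched on the sense strand of GENCODE M21 transcripts (GRCm38), were found in 41 of the 68 genes (60.3%) and in 31 of 21809 other protein-coding genes (0.142%). Several models without a match are of coding length only and end before the place where it would lie, so no match says only that the letters are not in that model. Longer models without a match include those of H2bc4 (1156 bases), which had the highest mean level of all these genes, and H2bc21 (2620 bases). Hist1h2bq (2015 bases) and Hist1h2br (2197 bases) had no match either. Examples of each core are printed 5′ to 3′ with the matched bases in capitals and up to 5 bases on each side, mostly from genes named in the results.
H2ac18: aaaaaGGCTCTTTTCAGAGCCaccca
H1f2: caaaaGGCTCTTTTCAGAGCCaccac
H2bc12: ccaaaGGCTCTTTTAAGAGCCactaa
H2ac20: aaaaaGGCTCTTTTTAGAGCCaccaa
H4c9: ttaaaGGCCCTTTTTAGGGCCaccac
H4c14: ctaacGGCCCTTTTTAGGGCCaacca
H4c8: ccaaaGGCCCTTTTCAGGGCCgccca
H4c11: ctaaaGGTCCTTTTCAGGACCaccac

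The core set H4 genes apart from the other classes, while the commonest cores outside H4 each occurred in several classes. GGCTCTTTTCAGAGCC was in 24 genes (9 H2A, 7 H2B, 5 H3 and 3 H1) and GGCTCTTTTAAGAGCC in 6 (3 H3, 2 H2B and 1 H1), while the 10 H4 matches held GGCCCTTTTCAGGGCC in 6 genes, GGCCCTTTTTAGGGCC in 2 and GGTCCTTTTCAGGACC in 2. A further core, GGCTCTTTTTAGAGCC, was in the H2A gene H2ac20 alone. No core was shared between H4 and another class. For each gene the GENCODE model with the most bases after the stem-loop was taken. In 19 of the 41 genes it went on for more than 100 bases, which a message cut beside the stem-loop would not hold. In 22 it ended within 100 bases. Levels belong to the gene and not to that model, which can be far longer than the RefSeq gene (7425 against 776 bases for H1f3). Mean levels had a median of 0.552 FPKM (0.0393 to 24.1) in the 19 genes and 0.164 FPKM (0.00775 to 32.5) in the 22. The ranges of both sets covered each other almost whole, and the level of either kind of end was not measured.

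Levels are given as FPKM (fragments per kilobase scaled to library size) from the transcript table, summed over the transcripts of a gene, because values of the gene table were not per kilobase of the transcript. For all 6948 genes with 1 transcript and a mean of at least 1 FPKM, the ratio of the gene to the transcript table was constant over the 22 libraries (coefficient of variation under 0.001). Between genes that ratio ran from 0.276 to 3.99 (5th to 95th percentile), and among the histone genes from 0.0391 to 5.12. A constant factor does not enter a fold change except through the 0.5 added before the logarithm, but it does enter the filter on low values. For genes with more than 1 transcript, such as H2bc4 (2) and H2bc6 (3), a constant ratio was not checked. Both the filter and the main tests were made on the gene table, and the tests of summed copies on the transcript table. Folds of genes with several transcripts therefore need not match the levels printed with them. The smallest steps of FPKM put 1 FPKM on a transcript of 1 kilobase at 15.1 to 25.0 fragments per library, and fragment numbers below are estimates from that.

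Most replication-dependent histone genes were read near the limit of detection, and a few carried most of the signal. Mean levels were under 1 FPKM for 44 of the 64 genes (68.8%), against 38% of all genes, and their median was 0.267 FPKM against 3.68 FPKM over all genes. Only 20 of the 64 reached a mean of 1 FPKM, 6 reached 5 FPKM and 3 reached 10 FPKM. In 25 of the 64 the median library held less than 1 estimated fragment, and in 47 less than 10. A total RNA kit keeps RNA without poly(A), yet whether such RNA was kept in these libraries could not be read from the tables, since none of the 22 listed noncoding RNAs without poly(A), and no Snora, Snord or Scarna gene, has a row. The reason for the low levels was not tested.

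**Figure D1:**
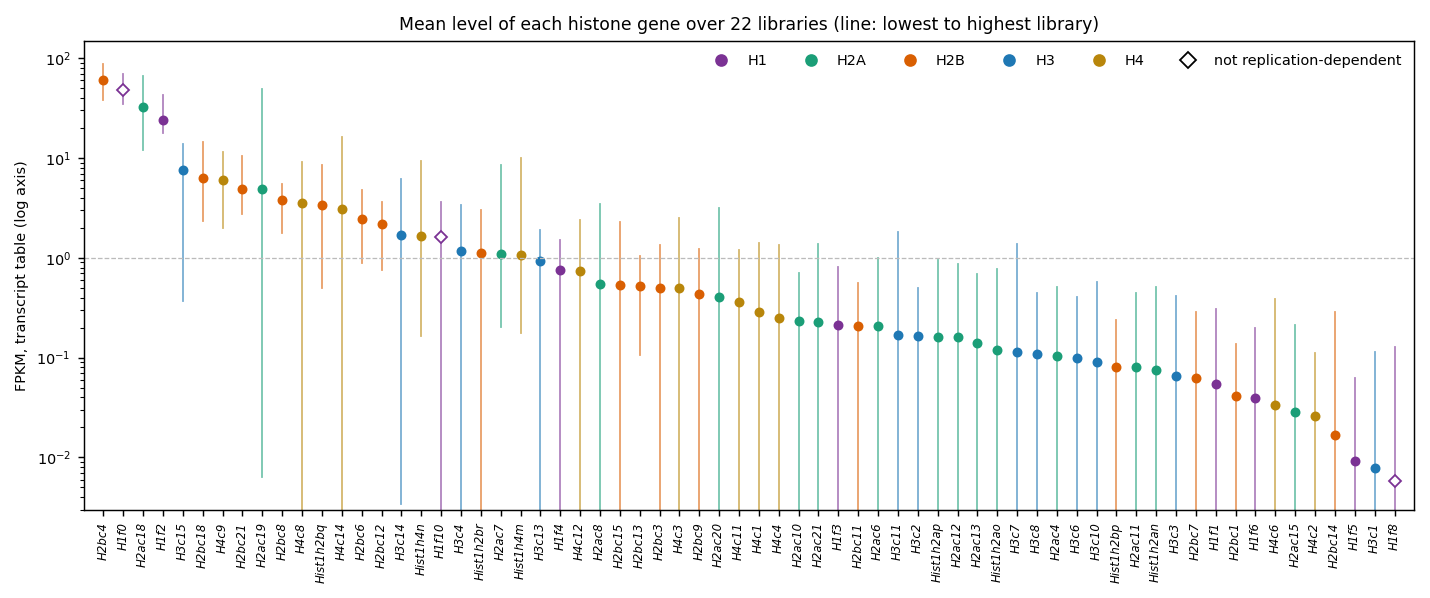
Mean FPKM of the transcript table over 22 libraries for each histone gene above 0, on a log axis, ordered by mean and coloured by class; vertical lines run from the lowest to the highest library, and open diamonds are genes that are not replication-dependent. H2bc4, H2ac18 and H1f2 stand at 61.3, 32.5 and 24.1 FPKM, while 44 of the 64 replication-dependent genes lie under the dashed line at 1 FPKM.

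H2bc4, an H2B gene (chromosome 13, 23684199 to 23692480, plus strand), was the highest at 61.3 ± 12.4 FPKM (SD over 22 libraries; lowest 38.0, median 60.9, highest 87.1). The H2A gene H2ac18 (chromosome 3, 96245497 to 96246052) followed among the replication-dependent genes with 32.5 ± 11.7 FPKM, and the linker histone gene H1f2 (chromosome 13, 23738807 to 23739531) with 24.1 ± 5.6 FPKM. These 3 genes held 64.1% of the summed FPKM of all 64, and H2bc4 alone 33.3%. H1f0, the linker histone of resting and differentiated cells, stood between them at 48.2 ± 9.2 FPKM. H2bc4 was above H1f0 in 17 of 22 libraries, H1f0 above H2ac18 in 21, H2ac18 above H1f2 in 17, and H1f2 above H3c15 in all 22, so among these neighbours the last step alone held in every library. H2ac18 and H3c15 each have a copy that took a large share of the pair's reads in 5 and 9 libraries, as described below. Their means, SDs and these counts include that split.

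Below them the order was less firm. H3c15 had 7.53 ± 3.44 FPKM, H2bc18 had 6.38 ± 2.99, H4c9 had 6.05 ± 2.43 and H2bc21 had 4.90 ± 1.56, and each was above the next in 14 to 17 of 22 libraries. The highest H4 genes were H4c9, H4c8 (3.57 ± 1.90 FPKM) and H4c14 (3.07 ± 3.38 FPKM). For H4c14 and H2ac19 (4.89 ± 11.4 FPKM) the SD was larger than the mean. The SDs of H2ac19 and H3c15, and the place of H3c15 in the order, include reads moved between copies. By class, 5 of 6 H1, 14 of 17 H2A, 9 of 17 H2B, 9 of 12 H3 and 7 of 12 H4 genes had means under 1 FPKM.

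The genes known from male germ cells were at or near 0, which did not set them apart from other genes of the set. H3c1 had a mean of 0.00775 FPKM and was at 0 in 18 libraries, and H1f5 had 0.00928 FPKM and was at 0 in 17. H2ac1, an H2A gene of the testis, was listed at 0 in all 22 libraries, as was the sperm linker histone H1f7. H1f6, the testis linker histone, had a mean of 0.0393 FPKM and was at 0 in 15 libraries, with at most 3.05 estimated fragments. H2bc1, the testis H2B gene, had a mean of 0.0409 FPKM and at most 1.30 estimated fragments. The protamine and transition protein genes Prm1, Prm2 and Tnp1, which mark testis, summed to at most 0.286 FPKM in a library, while the lung genes Sftpc and Ager were at 4592 FPKM or more and 197 FPKM or more (gene table).

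Several of these genes have a near-identical copy, and the table moved reads between copies from library to library. All 100-base windows of H2ac19 also occur in H2ac18 and in the gene model Gm20634, and 25 of the 68 genes have under 50% of their windows to themselves. H2ac19 took 48.3% to 69.6% of the summed FPKM of H2ac18 and H2ac19 in 5 libraries (short MCh 1, long MCh a and c, long OVA a and b) and at most 0.473% in the other 17. In the same way H3c14 took 47.4% to 53.9% of the sum of H3c14 and H3c15 in 9 libraries and at most 0.231% in the other 13. Hist1h2br took 45.5% to 50.03% of the sum with Hist1h2bq in 13 libraries and at most 9.50% in the other 9. The level of any such copy alone is therefore uncertain.

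**Figure D2:**
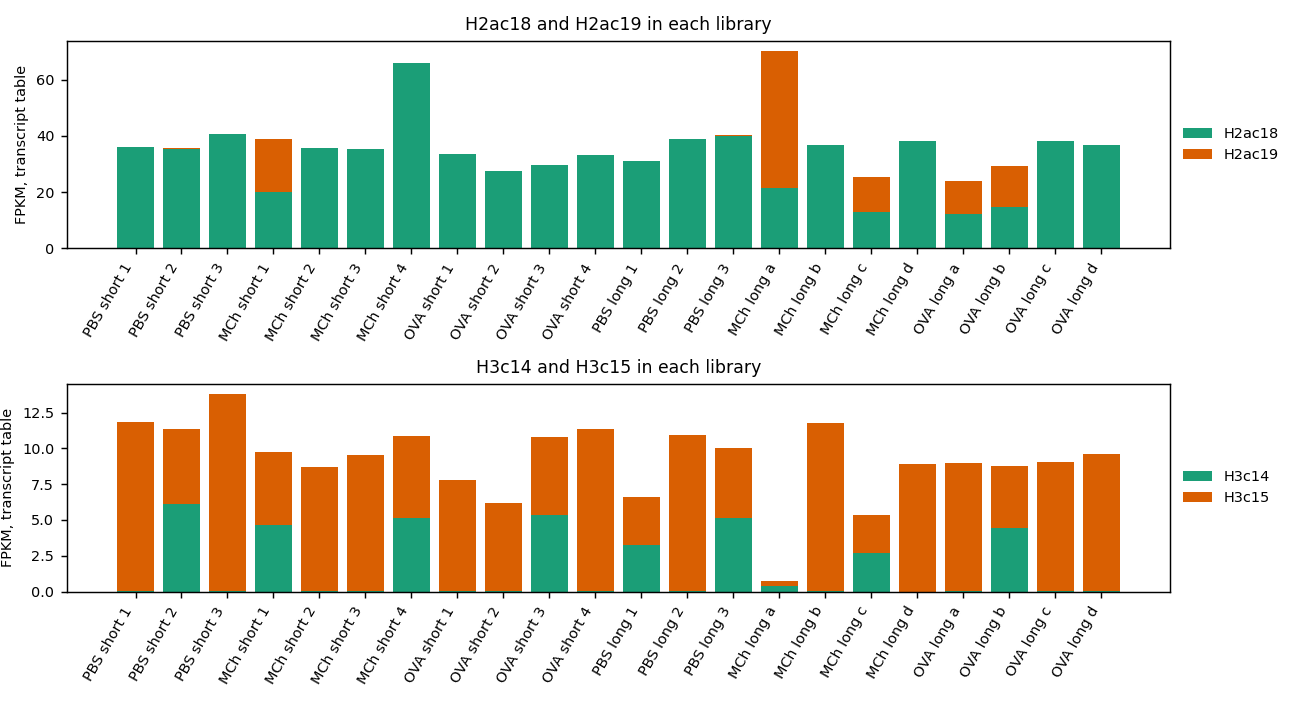
Stacked FPKM (transcript table) of the copies H2ac18 and H2ac19 (top) and H3c14 and H3c15 (bottom) in each of the 22 libraries. H2ac19 takes 48.3% to 69.6% of the bar in 5 libraries and H3c14 takes 47.4% to 53.9% in 9; in the others the second copy is barely visible.

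Sums over both copies do not depend on that split. In the short protocol, H2ac18 and H2ac19 together had 36.0, 35.6 and 40.6 FPKM after PBS, 38.9, 35.8, 35.5 and 66.1 FPKM after MCh, and 33.6, 27.5, 29.6 and 33.4 FPKM after OVA. In the long protocol they had 31.2, 39.1 and 40.2 FPKM after PBS, 70.4, 36.8, 25.3 and 38.4 FPKM after MCh, and 24.03, 29.3, 38.3 and 36.8 FPKM after OVA. All 4 short OVA libraries lay under all 3 short PBS libraries, while short MCh 4 and long MCh a were far above the rest of their groups. The sum of H3c14 and H3c15 was 11.8, 11.4 and 13.8 FPKM in short PBS and 7.82, 6.21, 10.8 and 11.4 in short OVA, and it was 0.733 FPKM in long MCh a.

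A few MCh libraries stood apart and are given with each result they touch. The share of all genes at 0 was 34.3% in long MCh a, 33.8% in long MCh c and 28.3% in short MCh 1, against 22.5% to 25.3% elsewhere, and of the 68 histone genes 41, 47 and 29 were at 0 there, against 6 to 14 in other libraries. A further library, short MCh 4, had the highest sum over the 64 replication-dependent genes, 266.8 FPKM, where the other short MCh libraries had 161.6 to 168.3. Its deviations from the all-library mean fell with transcript length (Spearman rho of -0.65 across genes, which are not independent replicates).

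H2A and H2B genes commonly lie head to head around a shared promoter, and these pairs were read unequally. There were 12 such pairs, 24 of the genes, and the H2B gene had the higher mean in 11. This count includes H2bc1 and H2ac1, at 0.0409 and 0 FPKM. It also includes the pairs of Hist1h2bq and of Hist1h2br, copies that share reads and so are not separate observations. In the pair H2ac6 and H2bc4 the starts are 240 bases apart, and H2bc4 at 61.3 FPKM was 293-fold above H2ac6 at 0.209 FPKM, higher in 22 of 22 libraries. H2ac6 was read in 19 of 22 libraries with a median of 1.74 estimated fragments. Of its windows 91.9% occur nowhere else, but these cover a GENCODE model of 2482 bases, where the RefSeq gene spans 487. Which part of those 487 bases is its own was not counted, and 44.8% of the windows of H2ac12 also occur in H2ac6. H2bc21 was 12.2-fold above H2ac20, with 100% and 93.1% of windows of their own. H2bc15 was 18.5-fold above H2ac15 (47.9% and 89.5%) and H2bc12 13.8-fold above H2ac12 (29.2% and 12.1%), where shared windows leave the levels less certain. For Hist1h2bq, with 5.16% of its windows its own and reads split with its copy, no fold is given. The exception was H2ac7, at 1.08 FPKM 17.1-fold above H2bc7 (36.4% and 53.6% of windows their own) and higher in all 22 libraries. In the pair of Hist1h2an and Hist1h2bp the means were 0.0746 and 0.0811 FPKM, with the H2B gene higher in 13 libraries.

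**Figure D3:**
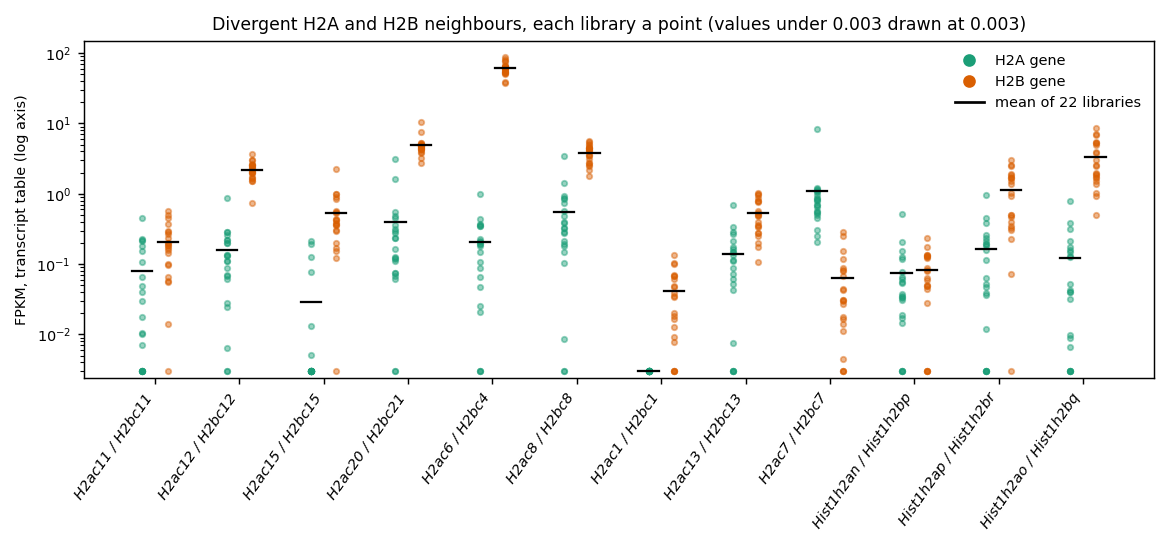
FPKM (transcript table, log axis, values under 0.003 drawn at 0.003) of the H2A and the H2B gene in 12 head-to-head pairs; each point is 1 of 22 libraries and the black line is their mean. The H2B gene is the higher in 11 pairs, most clearly in H2ac6 and H2bc4, and H2ac7 is above H2bc7.

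The promoter of H2ac6 is printed because the same stretch holds both starts of the pair with the widest gap. It is chr13:23683910-23684209 on the minus strand (RefSeq, GRCm38.p6), the window around the H2ac6 start in the RefSeq table, with the start of H2bc4 on the other strand near its left end. Capitals mark the CCAAT box, the TATA motif TATAAA and the octamer ATTTGCAT on either strand; none of these matches overlaps another.
H2ac6: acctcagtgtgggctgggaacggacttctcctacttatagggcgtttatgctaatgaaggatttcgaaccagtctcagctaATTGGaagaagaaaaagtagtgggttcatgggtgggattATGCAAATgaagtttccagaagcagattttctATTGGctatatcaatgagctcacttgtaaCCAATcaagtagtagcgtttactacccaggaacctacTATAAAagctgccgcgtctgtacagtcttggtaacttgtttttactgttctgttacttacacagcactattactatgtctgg

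The window holds CCAAT 3 times, TATAAA once and the octamer once. Of the 68 genes, 63 had a promoter in the RefSeq table, and CCAAT was in 82.5% of them against 37.9% of 27025 promoters of the same length. TATAAA was in 54.0% against 14.2%, and ATTTGCAT in 19.05% against 1.75%. CCAAT was in all 17 H2A, all 15 H2B and all 10 H3 promoters but in 3 of 11 H4 promoters. The octamer, a motif long known from H2B promoters, was in 6 of 17 H2A and 6 of 15 H2B promoters and in no H1, H3 or H4 promoter; since an H2A and an H2B window of a pair overlap, these counts share sequence. A match is a description of letters and not a bound site.

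The first comparison asked which genes differed between allergen and saline after the short protocol. Of the replication-dependent histone genes, 49 passed the filter on low values (at least 0.1 FPKM in at least 3 libraries of the gene table). Genes left out include Hist1h4m and Hist1h4n, with means of 0.0490 and 0.0655 FPKM there but 1.06 and 1.67 in the transcript table. Of the 49, limma on log2(FPKM + 0.5) with Benjamini-Hochberg adjustment over 15682 genes called 1 higher and 2 lower in short OVA than in short PBS (n = 4 and 3, adjusted p under 0.05). Over all genes 24.2% were called, 12.4% higher and 11.7% lower. An unadjusted p under 0.05 was reached by 9 of the 49, against 36.1% of all genes. The median difference was -0.02 on the log2 scale, against -0.06 over all genes. The 3 called genes were H2bc18 and H4c11, which fell, and H3c10, which rose. Of these only H3c10 was called without short PBS 1 or without short OVA 1, and none without short PBS 3, where the H1 gene H1f3 alone was called (0.78, limma adjusted p = 0.0326). In bulk lung, fewer cells of a type and less RNA per cell cannot be told apart.

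H2bc18, an H2B gene of the chromosome 3 cluster (96269700 to 96270192, plus strand), had 7.96, 7.02 and 10.9 FPKM in short PBS and 2.58, 2.32, 4.65 and 4.61 in short OVA. The groups did not overlap, and the difference was -1.21 ± 0.40 (log2 ± SE; limma adjusted p = 0.0331), on 76.6 to 121.9 estimated fragments in PBS and 23.6 to 50.5 in OVA. In short MCh it ran from 2.68 to 14.5 FPKM, across most of the range of both other groups, and in the long protocol from 4.71 to 7.48 in PBS and 4.76 to 11.4 in OVA. The OVA effect was higher in the long than in the short protocol by 1.48 ± 0.57, with a limma adjusted p of 0.214, so the difference between protocols was not called. At the same fold it was called with the groups of that contrast alone (adjusted p = 0.0148) and without the 4 libraries of lowest array weight (0.0126), and with array weights (1.51, 0.00506). Its call was lost without any 1 of the 3 short PBS libraries (adjusted p 0.0511 to 0.145) and without short OVA 1 (0.0927) or 2 (0.0915). H2bc18 shares 45.4% of its windows with the gene model Gm42743.

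H3c10, an H3 gene (chromosome 13, 21717628 to 21718115), had 0.0672, 0.0699 and 0 FPKM in short PBS and 0.579, 0.318, 0.149 and 0.191 in short OVA. The difference of 0.53 ± 0.14 (limma adjusted p = 0.00745) rests on 1.60 to 5.98 estimated fragments per OVA library and at most 0.819 in PBS. All 4 OVA libraries were above all 3 PBS libraries. Only 8.01% of its windows are its own, and it shares 60.3% with H3c2, so which H3 gene gave these fragments is uncertain. Without short PBS 3 the adjusted p was 0.0529. H4c11, an H4 gene (chromosome 13, 21735034 to 21735456), had 1.21, 0.330 and 0.616 FPKM in PBS and 0, 0.573, 0.0301 and 0.208 in OVA, with a difference of -0.84 ± 0.29 (adjusted p = 0.0381). Its groups overlapped, no library held over 12.7 estimated fragments, and its call was lost without short PBS 1 (adjusted p = 0.216) or 3 (0.0932) and without short OVA 1 (0.124), 3 (0.102) or 4 (0.0564).

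Among genes not called, H4c14 (chromosome 3, 96262934 to 96263317, minus strand), all of whose windows are its own, had 3.08, 1.76 and 4.36 FPKM in short PBS and 0.292, 0.871, 0.744 and 0.396 in short OVA. These groups did not overlap, at 14.9 to 37.95 estimated fragments in PBS and 2.37 to 6.90 in OVA. In short MCh it had 16.4, 1.72, 3.11 and 0.516 FPKM, and in long MCh 0, 4.47, 0.319 and 4.55, so both MCh groups spread more widely than the other 4. The difference was -1.71 ± 0.77 with a limma adjusted p of 0.116 when all 6 groups shared 1 estimate of the spread, and 0.00201 with these groups alone. Without the 3 libraries with most genes at 0, all MCh, the difference was the same and the adjusted p 0.00107, and H4c14 then counted among 9 called histone genes (3 higher, 6 lower). In long PBS (2.80 to 3.78 FPKM) and long OVA (2.66 to 4.49 FPKM) no library was as low as those of short OVA. The OVA effect in the long minus that in the short protocol was 1.90 ± 1.09 (adjusted p = 0.429). At the same fold it was called with the groups of that contrast alone (0.00244), without the 3 libraries with most genes at 0 (0.0275) and without the 4 of lowest array weight (0.00146), and with array weights at 2.02 (0.00239).

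The genes with the most reads were not called. H2bc4 had 83.6, 76.3 and 62.9 FPKM in short PBS and 54.7, 56.75, 64.2 and 64.15 in short OVA, overlapping at the edge. Its difference in the gene table was -0.20, with a 95% interval of -0.66 to 0.27 (limma adjusted p = 0.569). H2bc4 has 2 transcripts, so this fold need not match the printed levels, which are from the transcript table. H1f2 had 25.4, 27.1 and 21.5 FPKM in PBS and 26.9, 22.6, 27.8 and 34.5 in OVA, a difference of 0.17 with an interval of -0.27 to 0.60. H2bc21 (4.98 to 5.25 FPKM in PBS, 4.31 to 4.94 in OVA) differed by -0.15 (-0.70 to 0.40). The summed copies H2ac18 and H2ac19 differed by -0.27 (-0.80 to 0.26; adjusted p = 0.489), a sum chosen after seeing the data. For H4c9 the difference was 0.15 (-0.59 to 0.90). With the trend with transcript length removed, the estimates for H1f2 and H4c9 turned to -0.07 and -0.37, and that for H2bc4 went to -0.54 (adjusted p = 0.0573).

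**Figure D4:**
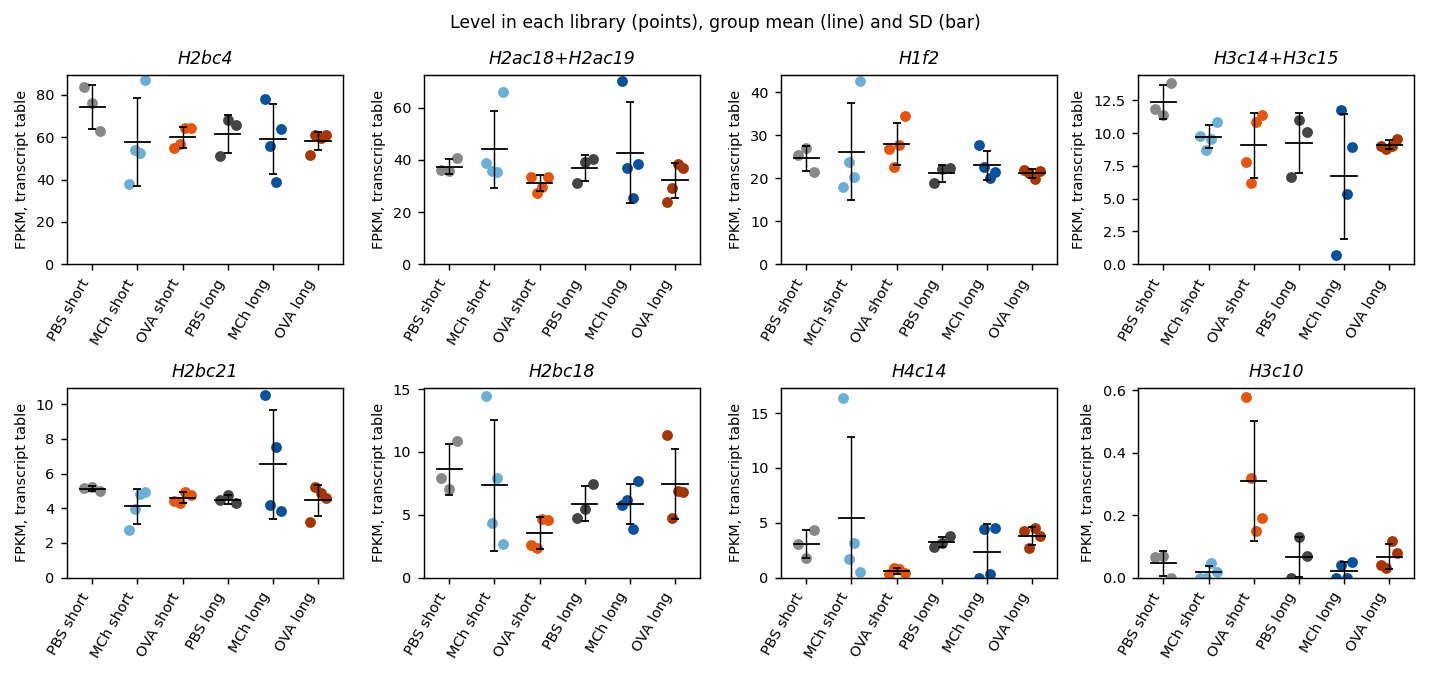
FPKM (transcript table, linear axes from 0) of 8 histone genes or summed copies in each library, with the group mean (line) and SD (bar); groups are 3 PBS, 4 MCh and 4 OVA in each protocol. H2bc4, H1f2 and H2bc21 overlap or nearly overlap between groups, H2bc18 and H4c14 are low in short OVA, and H3c10 is high there at levels under 0.6 FPKM.

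Of the 16 tested replication-dependent genes with a median of at least 10 estimated fragments, 1 was called (H2bc18) and 5 had a difference above 0 in short OVA, with a median of -0.22 and a range from -1.71 (H4c14) to 0.17 (H1f2). Of the 33 with fewer fragments, 19 had a difference above 0, with a median of 0.06. The sum over all 64 genes was 220.5, 196.0 and 195.9 FPKM in short PBS and 169.5, 160.5, 177.9 and 193.7 in short OVA. Every short OVA library was thus under every short PBS library in this sum, the closest by 193.7 to 195.9. In the gene table the groups overlapped, with short OVA 4 at 254.1 above short PBS 2 at 243.7 FPKM. No test was made of the sum, as the genes were chosen with results of these data known.

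Other features moved with the short OVA group, and their part in these results was not tested. Deviations from the all-library mean fell with transcript length in the 4 short OVA libraries (Spearman rho across genes of -0.48 to -0.40) and not in the 3 short PBS libraries (-0.03 to 0.27), and histone messages are short. With that trend removed, 13 of the histone genes were called, 1 higher and 12 lower. The share of all genes called in that setting is not given here, so the count does not set histone genes apart. H3c10 turned to -0.16 there (limma adjusted p = 0.532) while H2bc18 went to -1.92 (0.00439). Macrophage and monocyte markers rose in short OVA for 5 of 5 genes. Their summed levels were 485.7 to 712.6 FPKM against 113.6 to 146.0 in short PBS (transcript table, as for the sums that follow). Of 6 eosinophil and neutrophil markers 3 rose, with sums of 135.9 to 306.2 against 94.4 to 276.0 FPKM. T cell markers (1 of 5 rose) summed to 40.3 to 59.8 against 15.7 to 49.3 FPKM, B and plasma cell markers (1 of 5) to 118.1 to 319.4 against 46.8 to 221.2, and general leukocyte markers (1 of 3) to 193.6 to 262.9 against 100.6 to 193.6. Of 10 lung markers 2 rose and 4 fell, of 7 erythroid markers 1 fell, and 0 of 5 cardiac muscle and 0 of 2 tested thymocyte markers were called. Apart from the thymocyte gene Ptcra, no marker of these lists was at 0 in all libraries of either group.

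Lists of genes that act in the same phases of the cell cycle were counted in the same comparison. Of 38 genes of S phase and DNA replication 30 rose and 0 fell, with a median of 0.94, and the smallest p belonged to Rrm2, the ribonucleotide reductase subunit (1.83 ± 0.25), Uhrf1 (1.51 ± 0.24), Dscc1 (0.76 ± 0.12) and Pcna (0.92 ± 0.15). Of 25 mitosis and proliferation genes 25 rose, with a median of 1.70, led by Birc5 (1.27 ± 0.15), Cdk1 (2.78 ± 0.35), Cdc20 (1.55 ± 0.22) and Hmmr (2.24 ± 0.35). Without short PBS 3, 22 of the 38 and 16 of the 25 were called. The proliferation mark Mki67 had 7.44 ± 5.49 FPKM in short PBS and 23.9 ± 1.55 in short OVA (SD, n = 3 and 4; gene table; limma adjusted p = 0.0113). No test compared the lists.

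**Figure D5:**
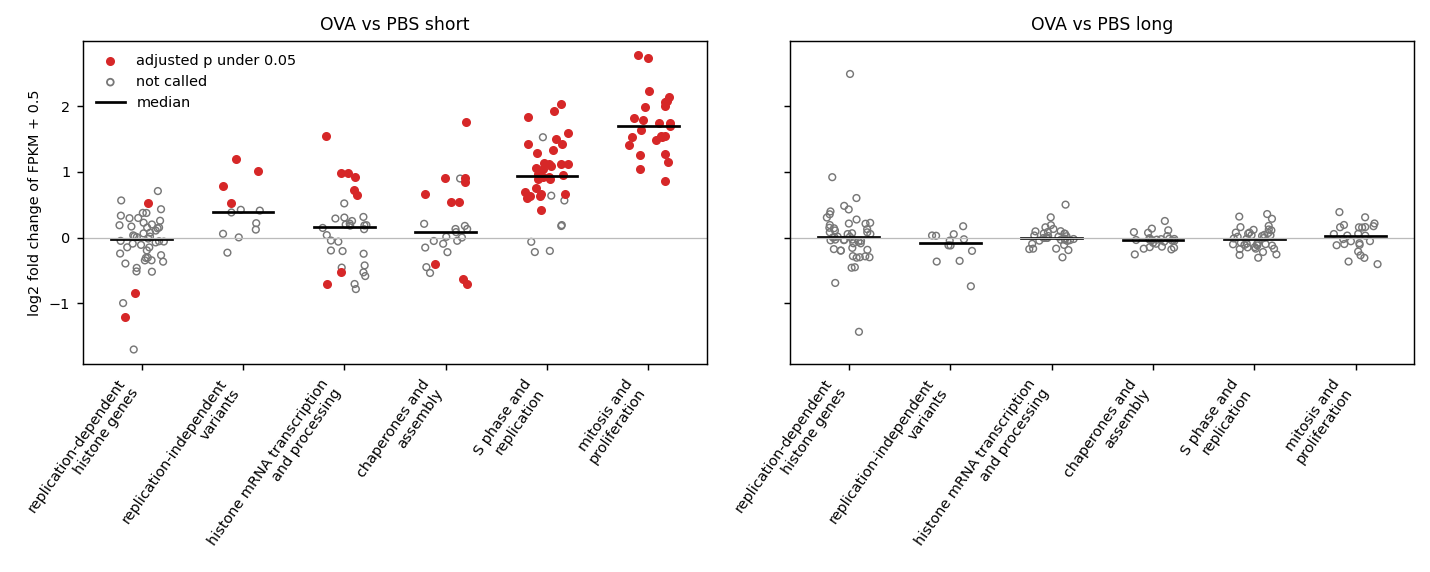
Log2 fold change of FPKM + 0.5 for each tested gene of 6 lists, short OVA against short PBS (left) and long OVA against long PBS (right); filled red points have an adjusted p under 0.05, open points do not, and the black line is the median. On the left 3 of 49 replication-dependent histone genes are red, against 30 of 38 S phase and 25 of 25 mitosis genes; on the right none in any of the 6 lists is.

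Of the variants listed as replication-independent, 4 of 12 tested genes rose and 0 fell, with a median of 0.40. H2az1, the H2A variant at gene starts, had 246 ± 38.9 FPKM in short PBS and 564 ± 49.5 in short OVA (1.20 ± 0.21, limma adjusted p = 3.42e-04). Cenpa, the H3 variant of centromeres, rose by 1.02 ± 0.28, H3f3c by 0.53 ± 0.15 and H2ax, the variant marked at DNA breaks, by 0.79 ± 0.24. The H3.3 genes H3f3a (0.42 ± 0.15, adjusted p = 0.0512) and H3f3b (0.22 ± 0.15, 0.312) and the linker histone gene H1f0 (0.12 ± 0.16, 0.625) were not called. Without short PBS 3, and also with the length trend removed, 1 of these variants was called.

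Genes that make and load histones were called in both directions. Of 32 genes for histone mRNA transcription and end processing, 6 rose and 2 fell, with a median of 0.16; 8 of 32 is close to the 24.2% called over all genes. Ccne1, the cyclin that starts histone transcription with Cdk2, rose by 1.55 ± 0.24, and Snrpd3, Snrpg and Snrpf, spliceosomal Sm proteins that also enter the U7 particle, rose by 0.64 ± 0.14, 0.73 ± 0.18 and 0.92 ± 0.25. Lsm11, which like Lsm10 is particular to the U7 particle, fell from 9.25 ± 0.52 to 6.27 ± 0.37 FPKM (-0.53 ± 0.19, limma adjusted p = 0.0449). Slbp went from 7.90 ± 0.60 to 11.8 ± 2.6 FPKM (0.52 ± 0.26, adjusted p = 0.158), and Npat (-0.21 ± 0.19), Casp8ap2 (-0.20 ± 0.33), Lsm10 (0.30 ± 0.34) and Zfp473 (0.15 ± 0.15) were not called. Of 25 chaperone and assembly genes 7 rose and 3 fell, among them Npm1 (0.66 ± 0.13), Nasp, which carries H3 and H4 (0.55 ± 0.13), Cabin1 (-0.71 ± 0.20) and Hira, which loads H3.3 (-0.40 ± 0.11). Without short PBS 3, 3 of the 32 and 2 of the 25 were called, all higher.

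In the long protocol, 0 of 49 replication-dependent histone genes were called by limma between OVA and PBS (n = 4 and 3), where 1.18% of all genes were, 1.03% higher and 0.153% lower; 3 reached an unadjusted p under 0.05, and 1 was called with array weights. Those 3 were H3c2 (0.48 ± 0.17), H1f3 (0.60 ± 0.22) and H2ac12 (-0.46 ± 0.20). The median was 0.01, against -0.02 over all genes. H2bc4 had 51.3, 68.1 and 65.5 FPKM in PBS and 51.8, 60.8, 59.4 and 60.9 in OVA. H1f2 had 18.9, 22.2 and 22.5 FPKM in PBS and 21.97, 21.3, 19.7 and 21.6 in OVA, so both genes overlapped between groups. In this comparison the S phase, mitosis, variant, processing and chaperone lists had 0 genes called.

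For MCh against PBS, limma called 0 of 49 in the short protocol (0.00638% of all genes were called) and 0 of 49 in the long protocol (0.0638% of all genes, 0.0574% higher), with n = 4 and 3 in each. An unadjusted p under 0.05 was reached by 5 and 8 genes, and array weights called 1 in the short and 0 in the long protocol. The smallest p in short MCh belonged to the H2B gene H2bc6 (-0.98 ± 0.27, adjusted p = 0.388). It had 4.74, 2.19 and 2.96 FPKM in PBS and 0.896, 1.995, 2.02 and 1.605 in MCh, where all MCh libraries lay under all PBS libraries. H2bc6 has 3 transcripts, so its fold from the gene table need not match these levels from the transcript table. In long MCh the smallest p belonged to H2ac12 (-0.70 ± 0.20, adjusted p = 0.215). The median over the 49 genes was -0.10 in the short and -0.21 in the long protocol, against -0.05 and -0.14 over all genes. Short MCh 1 and long MCh a and c, which have the most genes at 0, belong to these groups; without them both counts were also 0.

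OVA was also compared with MCh within each protocol (n = 4 each). In the short protocol limma called H3c10 (0.61 ± 0.13, adjusted p = 0.00189) and H3c2 (0.62 ± 0.16, 0.0116) higher in OVA and 0 lower, of 49 genes, where 15.2% of all genes were called, 9.37% higher and 5.82% lower. With the length trend removed neither was called (adjusted p 0.444 and 0.320). H3c2, an H3 gene (chromosome 13, 23752345 to 23752840), had 0, 0, 0.0449 and 0.0186 FPKM in short MCh and 0.284, 0.497, 0.158 and 0.281 in short OVA, on at most 5.09 estimated fragments. In the long protocol H3c2 was called again (0.57 ± 0.16, adjusted p = 0.0397; 6.06% of all genes were called, 4.75% higher and 1.31% lower), with 0, 0.0732, 0 and 0.192 FPKM in MCh and 0.502, 0.343, 0.429 and 0.128 in OVA. Both zeros of long MCh are libraries a and c; without both and short MCh 1 the adjusted p was 0.359. Leaving out 1 library ended this call for long MCh a (0.0979) and c (0.107) and for long OVA a (0.142), b (0.0709) and c (0.109), while without long MCh b or d or long OVA d 5, 5 and 2 replication-dependent genes were called, all higher. Without short MCh 4, the short comparison called 10 replication-dependent genes, 7 higher and 3 lower. Without short OVA 2, H3c2 had an adjusted p of 0.0520 there.

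Between long and short PBS lungs, limma called 0 of the 49 genes (n = 3 each; 0.166% of all genes were called, 0.0191% higher and 0.147% lower). Of these genes 2 had an unadjusted p under 0.05, and array weights called 1. The difference of the OVA effects between protocols was called for 0 of 49 (1.88% of all genes, 0.459% higher and 1.42% lower), with 4 at an unadjusted p under 0.05. These were H3c10 (-0.52 ± 0.19), H2bc18 (1.48 ± 0.57), H2ac12 (-0.66 ± 0.29) and H3c13 (0.61 ± 0.27). With array weights 6 were called. The difference of the MCh effects was called for 0 of 49 and for 0% of all genes, with 5 at an unadjusted p under 0.05 and 0 called by array weights. In the OVA interaction, 3 of 38 S phase and 7 of 25 mitosis genes were lower in the long protocol, among them Rrm2 (-1.93) and Cdk1 (-2.62). Comparisons that share a PBS group are not independent of each other.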

How the data were processed

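The labels' protocols name RNeasy extraction, DNase I and the TruSeq Stranded Total RNA kit for these lung samples. The files the authors deposited hold FPKM, 1 table by gene and 1 by transcript. Trim Galore, STAR, DESeq2 and mm10 are listed, per the submitters' processing notes, with no role or version; which program gave FPKM is not given in the sources used here. Column names carry a replicate number for 14 libraries, while the 8 of long MCh and long OVA match a group but no single sample, so they bear the letters a to d. The labels call samples biological replicates. In the main fit a p-value sets a group difference against the spread between libraries within groups, pooled over all 6 groups.

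limma 3.58.1 in R 4.3.3 was fitted to log2(FPKM + 0.5) of the 15682 genes that reached 0.1 FPKM in 3 libraries or more, with all 6 groups in 1 model, an intensity trend and two-sided tests; p-values were adjusted by Benjamini-Hochberg within each contrast over all genes tested. The added 0.5 understates changes of low genes. The steps were tested on simulated data. Named genes are the 3 with the highest gene-table mean in each class, called genes, the germ-cell genes, up to 4 genes of each other list with the smallest p in short OVA against PBS, and chosen key genes; other genes named with values were chosen after their values were seen. The members and lists were chosen with earlier results of these data known. Stem-loops and shared windows come from GENCODE M21 transcripts, gene positions and promoters from RefSeq GRCm38.p6. Alternatives were other pseudocounts, filters and scalings, array weights, sums of transcripts, each contrast's groups alone, a replicate block, removal of the trend with transcript length, and leaving out libraries.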

Additional observations from a re-analysis of the deposited data

Results flagged for a closer look

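In groups of 4 libraries, a value was singled out where its gap to the nearest other library was a larger share of the group's range than Dixon's 95% critical value. Of 100 groups tested, 11 had such a library. The 95% value gives about 1 in 20 for independent, normally distributed values. These values are raw FPKM of linked genes, some of them copies that share reads, so 11 cannot be set against that rate. All values are FPKM, from the gene table unless stated.

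The linker histone gene H1f0 had 149.3 in short MCh 4, where the others had 85.2 to 91.3. In the same library the 64 replication-dependent genes summed to 266.8 (transcript table), where the others had 161.6 to 168.3. In short MCh 1, H2ac19 had 23.9 (others 0.0498 to 0.215), H2ac20 had 2.90 (others 0.150 to 0.449) and H4c14 had 16.8 (others 0.528 to 3.18). The sum of H2ac18 and H2ac19 in that library, 38.9 (transcript table), was not singled out in this way: the other short MCh libraries had 35.8, 35.5 and 66.1.

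The H2A gene H2ac20 had 1.49 in short OVA 1 (others 0.0624 to 0.119). The H3 gene H3c14 had 7.20 in short OVA 3 (others 0.00508 to 0.0206), 3.59 in long MCh c (others 0.00457 to 0.485) and 5.96 in long OVA b (others 0.0105 to 0.0280). Its copy H3c15 had 5.85 in long OVA b, the lowest there (others 12.15 to 12.95), while the sum of both copies in the transcript table, 8.77, was close to that of the other long OVA libraries (8.99, 9.04 and 9.59). In short OVA 3 this sum was 10.8, where the other short OVA libraries had 7.82, 6.21 and 11.4. In long MCh c it was 5.34, where the other long MCh libraries had 0.733, 11.8 and 8.95. The H4 gene H4c9 had 3.93 in long OVA a (others 2.295 to 2.55).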

How the results depend on the processing

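Of 1283 values of named genes under alternatives, 1147 kept their direction and side of the threshold, 30 lost and 10 gained a call in the same direction, and 96 changed sign. In 95 of these neither value was called, as for H1f2 (0.17 to -0.07) and H4c9 (0.15 to -0.37) in short OVA against PBS with the length trend removed. The other is H3c10, which was called and went to -0.16 there. Of 199 counts, 158 stayed within 1.5 times; they cover 51 tested genes, H1f0 and H1f10 included. Short OVA against PBS (3 called) gave 1 with a filter at FPKM 1, 11 with array weights, 8 with its groups alone, 9 without the 3 libraries with most zeros, 9 without the 4 of lowest weight, 13 with the length trend removed, and 1 to 3 leaving out 1 library. Short OVA against MCh (2) gave 0 with the FPKM 1 filter, 4 without filter, 13 with array weights, 4 with sums of transcripts, 4 with copies summed (chosen after seeing the data), 7 without the 4 of lowest weight, and 1 to 11 leaving out 1 library. Long OVA against MCh (1) gave 0 with the FPKM 1 filter, quantile scaling, array weights, its groups alone, without the 3 or the 4 libraries and with the length trend removed, and 0 to 6 leaving out 1. From 0, array weights gave 1 in long OVA against PBS, 1 in short MCh against PBS, 1 in long against short PBS and 6 for the OVA effect between protocols, which also gave 5 with its groups alone, 1 without the 3 libraries, 5 without the 4 and 1 with the length trend removed. Long MCh against PBS gave 0 to 1 leaving out 1 library, the 1 being H1f10. H1f0 is among the 13, 7 and 11 of short OVA against MCh, and H1f10 among the 6 of long OVA against MCh; replication-dependent genes alone gave 12, 6, 10 and 5. Counts under alternatives, here and above, are given without the share of all genes called in each setting, so they do not set histone genes apart. The causes were not tested.

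Same-numbered libraries of 2 groups correlated at -0.27 to 0.36 over 13 pairs, with 1 pair over 0.1. Libraries of unlike number were not correlated for comparison, so this cannot decide whether the numbers pair them. A replicate block over the numbered libraries gave 2 called in short OVA against PBS (H3c10 higher, H3c13 lower), 2 in short OVA against MCh, 0 in short MCh against PBS and 0 between PBS groups; H2bc18 (adjusted p = 0.0807) and H4c11 (0.0998) were then not called. Depth limits most genes: 38 of the 64 had a median of under 3 estimated fragments.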
